A study of Mus musculus with 18 samples.

Results

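Axon guidance ligands and receptors are the cues that steer growing nerve fibres and the cell surface proteins that read these cues. The members described here are 46 of the 55469 genes in the tables: 20 semaphorins, 11 plexins and neuropilins, 8 genes of the netrin system (netrins, the Unc5 receptors, Dcc and neogenin) and 7 Slit and Robo genes. They were chosen by the name of their gene family and matched by gene ID, with earlier results of these data known. The RNA came from ventral plus lateral lobes of the mouse prostate, and every mouse was heterozygous for TRAMP, a transgene in which the probasin promoter drives the SV40 T antigens in prostate epithelium and leads to tumours. WT-TRAMP mice had intact Elac2, the gene of an RNase that trims the 3′ ends of precursor tRNAs. In KO-TRAMP mice Pb-Cre, a recombinase driven by the probasin promoter, removed exon 8 of Elac2 in the prostate only. A537T-TRAMP mice were homozygous for the A537T change of ELAC2 in the whole body. The labels give the strain as C56NL/6N for all groups, and each group was sampled at 10 and at 30 weeks with 3 libraries, so that p-values measure only the spread between these libraries.

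Semaphorins are read mainly by plexins, and most of the secreted class 3 semaphorins need neuropilins as co-receptors. Netrins attract or repel through Dcc, neogenin and the Unc5 receptors, and Slit proteins repel through Robo receptors. Outside the nervous system the same proteins act in the growth of vessels, the branching of epithelium and the movement of tumour and immune cells. In prostate tissue they can come from epithelium, stroma, vessels or nerve. These are bulk libraries, in which fewer cells of a type and less RNA per cell cannot be told apart.

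Library numbers follow the column headers. The WT-TRAMP libraries are 1 to 3 at 10 weeks and 10 to 12 at 30 weeks. Those of A537T-TRAMP are 4 to 6 and 13 to 15, and those of KO-TRAMP are 7 to 9 and 16 to 18. Each library held 9380174 to 14830104 estimated reads assigned to genes, in whole numbers, recovered from the deposited normalized counts. These normalized counts are the unit of every value per library given here. The targeted gene Elac2 did not separate the groups: in KO-TRAMP it differed by −0.22 at 10 weeks and −0.19 at 30 weeks on the log2 scale, in A537T-TRAMP by −0.09 and 0.05, and the groups overlapped in all 4 comparisons. A count over the whole gene need not show the loss of 1 exon or a change of 1 amino acid. By immunoblot of prostates without TRAMP, the study reported ELAC2 protein as lost in the knockout and reduced in A537T. All 10 markers of luminal secretory epithelium were above 0 in every library. Seminal vesicle markers, however, summed to 19.3 to 54.0 in WT-TRAMP at 10 weeks, to 99.8, 5937 and 180200 in KO-TRAMP libraries 7 to 9, and to 5025, 1157000 and 136500 in A537T-TRAMP libraries 4 to 6. At 30 weeks they were high in WT-TRAMP libraries 10 and 12 (496900 and 220700) and low in library 11 (12.5). KO-TRAMP libraries 16 to 18 were at 30920, 75.8 and 11630, and A537T-TRAMP libraries 13 to 15 at 626900, 35.8 and 292000. Neuroendocrine markers were at 17750 and 11060 in KO-TRAMP libraries 17 and 18 and at 5.14 in library 16, against 1617, 5.76 and 769 in WT-TRAMP libraries 10, 11 and 12.

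At 30 weeks 1 library of a group lay close to a weighted sum of the other 2. In WT-TRAMP, library 12 was near 0.46 times library 10 plus 0.54 times library 11, and in KO-TRAMP library 18 was near 0.38 times library 16 plus 0.60 times library 17. Genes were taken whose lowest and highest values among all 3 libraries of a group differed at least 2-fold. Library 12 lay between the other 2 in 87.3% of 1127 such genes and library 18 in 94.8% of 3714 genes. Library 15 of A537T-TRAMP did so in 71.6% of 1053 genes. The squared residual had a median of 1.24 times the counting variance in libraries 12 and 18 and 2.28 times in library 15, while the same fits at 10 weeks gave 2.36 to 7.50 times. Library 15 was thus close to the lowest of the 10-week fits, that of library 2. At 10 weeks library 2 lay between the other 2 in 59.6% of 795 such genes, library 6 in 66.3% of 2242 and library 9 in 42.4% of 732. Among members at or above 20 whose other 2 values differed at least 2-fold, 14 of 15 lay between them in library 12, 21 of 22 in library 18 and 4 of 5 in library 15, against 6 of 6 in library 2, 6 of 11 in library 6 and 6 of 9 in library 9 at 10 weeks. The exception in library 12 was Sema3d, with 55.9 against 14.6 and 4.80. The cause was not tested. The p-values at 30 weeks treat all 3 libraries of a group as independent, so each comparison at that age is also given without these libraries.

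**Figure D1:**
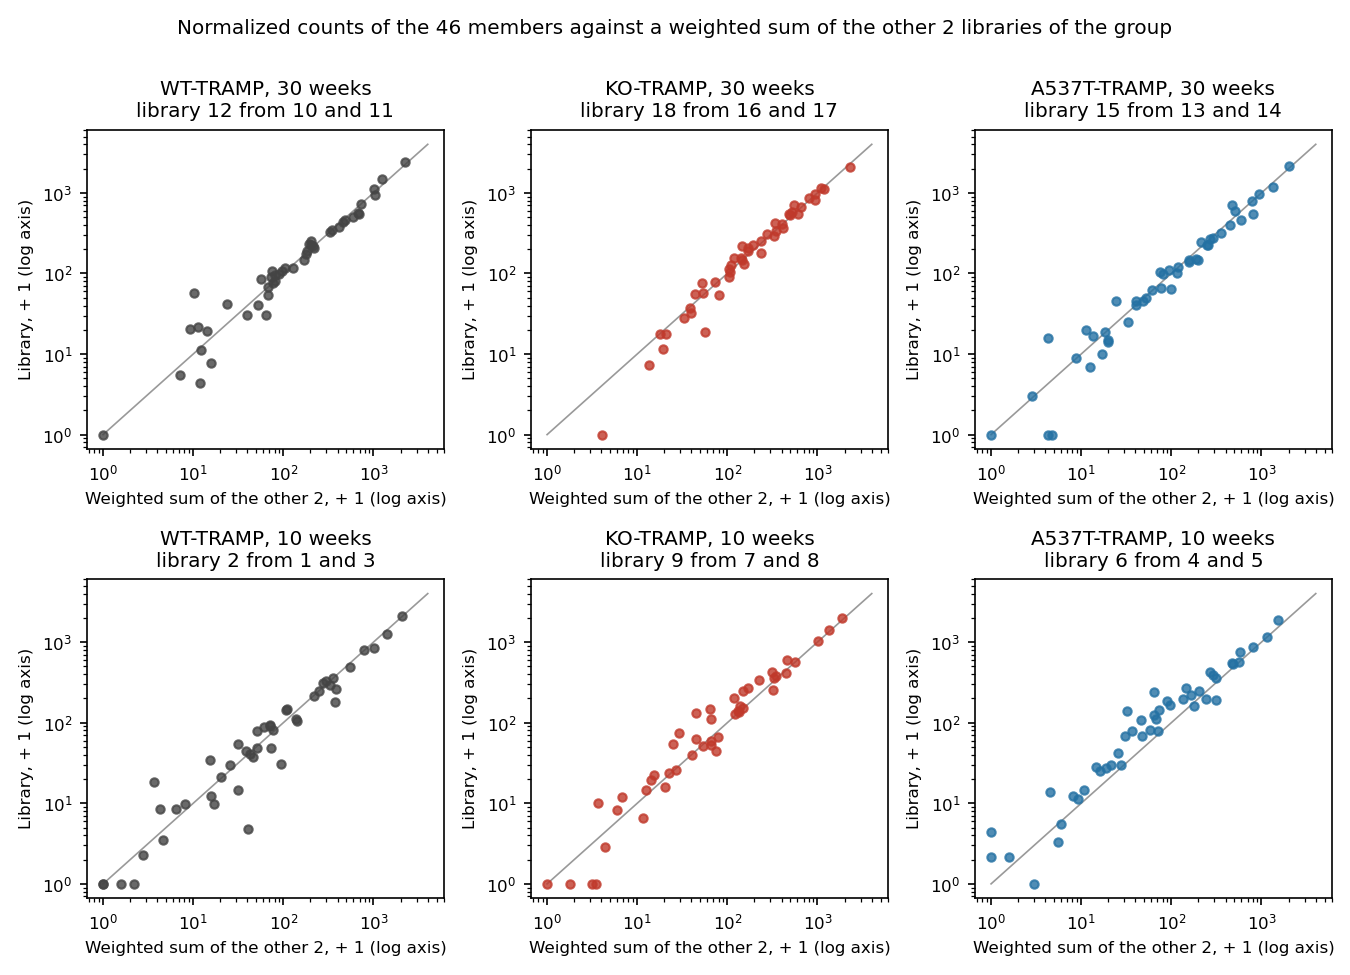
Each point is 1 of the 46 members. The y axis is its normalized count in 1 library and the x axis the weighted sum of the other 2 libraries of that group, both plus 1 on log axes, and the line marks equality. In the upper row (30 weeks) the points of libraries 12 and 18 lie close to the line, and in the lower row (10 weeks) they scatter more.

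Levels of different genes were compared as normalized counts per kb of exon, averaged over the 8 group means of the tables. They spanned a wide range, from 271 per kb for Plxnb2, a receptor of class 4 semaphorins, to 0.0782 per kb for Robo3. The highest semaphorins were Sema4a (237 per kb) and Sema4b (63.9 per kb), both membrane-bound class 4 ligands. Among the receptors, Plxna3, which joins neuropilins to read class 3 semaphorins, followed Plxnb2 at 79.5 per kb. Neogenin (Neo1), a receptor of netrins and of repulsive guidance molecules, stood at 106 per kb and Ntn4, a netrin of basement membranes, at 50.0 per kb. The most abundant Slit and Robo genes were Slit3 (40.6 per kb) and Robo1 (19.9 per kb). With the length of the longest transcript in place of all exons, Sema4a (399 per kb) passed Plxnb2 (322 per kb). Low levels set a limit: with a minimum mean of 10, 38 members could be tested for KO-TRAMP and 37 for A537T-TRAMP at 10 weeks, and 44 and 43 at 30 weeks. Plxnb3, a receptor of semaphorins, and Robo3 were under the minimum in all 4 comparisons, and Sema5b, Sema6b, Sema7a, Unc5d, Dcc and Slit1 in both at 10 weeks. Sema3e missed it for A537T-TRAMP at 10 weeks and Sema5b for A537T-TRAMP at 30 weeks.

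**Figure D2:**
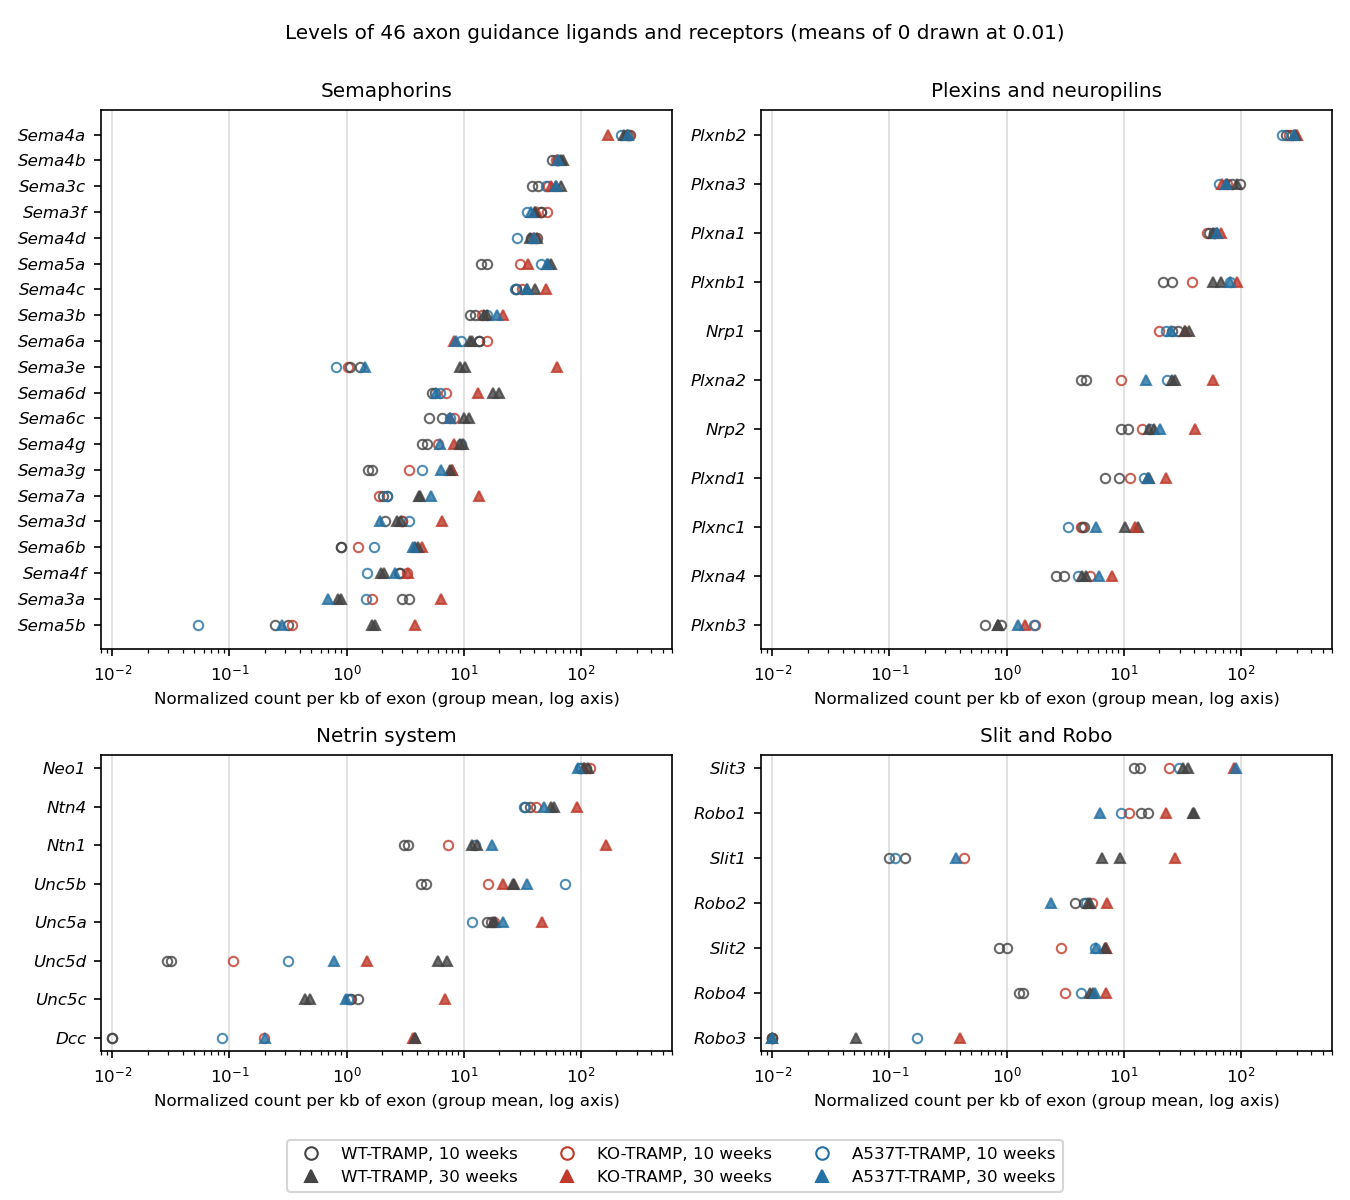
Group means of the normalized count per kb of exon (log axis) for the 46 members, with open circles for 10 weeks, triangles for 30 weeks and a colour for each line; WT-TRAMP appears once per table. Plxnb2 and Sema4a are at the top of their families and Robo3 and Dcc at the bottom of theirs, with means of 0 drawn at 0.01.

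Slit3, Robo1, Sema3a and Unc5c are the members on which the comparisons below turn. Their promoters (250 bases before to 50 after a RefSeq start, GRCm38.p6, 5′ to 3′ on the plus strand, which all of them use) are shown because they differ in base composition. Capitals mark the motif GGGCGG or its complement CCGCCC, the core of a GC box, which can overlap itself. The windows are chr11:35121206-35121505, chr16:72662899-72663198, chr5:13396534-13396833 and chr3:141465314-141465613. Those of Robo1, Sema3a and Unc5c lie inside the gene as GENCODE gives it. The Slit3 window starts just before its gene and otherwise lies inside it as well.
Slit3: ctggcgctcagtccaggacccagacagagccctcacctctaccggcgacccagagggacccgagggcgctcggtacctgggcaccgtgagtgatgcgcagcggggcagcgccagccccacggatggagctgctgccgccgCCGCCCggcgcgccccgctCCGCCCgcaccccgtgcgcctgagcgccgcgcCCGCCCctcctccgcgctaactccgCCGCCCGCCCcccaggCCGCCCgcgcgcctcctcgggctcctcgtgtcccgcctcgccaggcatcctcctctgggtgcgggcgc
Robo1: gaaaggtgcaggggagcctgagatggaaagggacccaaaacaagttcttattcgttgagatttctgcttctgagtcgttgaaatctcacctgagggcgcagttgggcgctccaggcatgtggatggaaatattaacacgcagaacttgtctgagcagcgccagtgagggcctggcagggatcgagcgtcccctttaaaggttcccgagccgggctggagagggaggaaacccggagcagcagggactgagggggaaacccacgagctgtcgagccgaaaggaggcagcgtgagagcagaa
Sema3a: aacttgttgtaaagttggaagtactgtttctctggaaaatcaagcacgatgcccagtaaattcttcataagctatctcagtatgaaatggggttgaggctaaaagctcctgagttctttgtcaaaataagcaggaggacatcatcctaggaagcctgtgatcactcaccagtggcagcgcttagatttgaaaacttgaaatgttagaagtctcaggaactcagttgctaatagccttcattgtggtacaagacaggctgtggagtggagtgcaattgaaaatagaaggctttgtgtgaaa
Unc5c: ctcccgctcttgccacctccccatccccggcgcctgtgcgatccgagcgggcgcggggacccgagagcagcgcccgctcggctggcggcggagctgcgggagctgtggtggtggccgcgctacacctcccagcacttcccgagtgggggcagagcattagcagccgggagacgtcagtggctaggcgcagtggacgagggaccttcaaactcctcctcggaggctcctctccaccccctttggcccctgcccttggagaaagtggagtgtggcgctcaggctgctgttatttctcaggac
The Slit3 promoter held 6 such motifs at 78.3% GC, whereas none stood in the windows of Robo1 (57.0% GC), Sema3a (41.3% GC) or Unc5c (68.3% GC). A promoter was listed for 37 of the 46 members. GGGCGG on either strand stood in 73.0% of these and in 35.9% of all 27025 promoters of this length. The median GC content was 67.0% in the members and 52.7% in all promoters. The E-box CAGCTG stood in 13.5% of the members against 16.1% of all, the half-site AGAACA of steroid receptors in 10.8% against 19.0%, and the TATA-like TATAAA in 2.7% against 14.2%, each searched on both strands. Such a match is a description of letters and not a site.

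Each line was compared with WT-TRAMP of its age by limma on log2(normalized count + 1), with Benjamini-Hochberg adjustment over all genes tested and a two-sided threshold of 0.05. No member passed in any of the 4 comparisons: 0 of 38 for KO-TRAMP and 0 of 37 for A537T-TRAMP at 10 weeks, and 0 of 44 and 0 of 43 at 30 weeks. Over all genes the shares called were 0.0129% and 0.00648% at 10 weeks, and 0.213% and 0% at 30 weeks. edgeR called 0 members in each as well, and DESeq2 called 1, 0, 5 and 3. Over all genes edgeR called 0, 0, 15 and 0. DESeq2 called 81 of 15451 and 148 of 15438 genes at 10 weeks, and 805 of 16900 and 165 of 16261 at 30 weeks. At an unadjusted p under 0.05 stood 6 of 38 members (15.8%, against 6.64% of all genes) for KO-TRAMP and 7 of 37 (18.9%, against 7.89%) for A537T-TRAMP at 10 weeks. At 30 weeks these counts were 7 of 44 (15.9%, against 13.5%) and 5 of 43 (11.6%, against 7.21%). The median log2 fold change of the members was 0.18, 0.25, 0.18 and −0.08 in this order, beside −0.01, −0.01, 0.01 and 0.00 over all genes. Both comparisons of an age share their WT-TRAMP libraries and are not independent. The median at 10 weeks for KO-TRAMP was −0.03 without libraries 8 and 9, 0.0392 without library 8 and 0.152 without library 9. For A537T-TRAMP it was −0.02 without libraries 5 and 6, 0.245 without library 5 and 0.0875 without library 6. At 30 weeks the median for KO-TRAMP changed with most omissions: it was 0.67 without libraries 10 and 12, −0.0484 without library 11, 0.423 without library 10, 0.38 without library 16, 0.0575 without library 17, 0.0367 without libraries 17 and 18 and 0.145 without libraries 12 and 18. For A537T-TRAMP it was 0.19 without libraries 10 and 12 and −0.0169 without libraries 12 and 15, and it ran from −0.175 to −0.0028 over the omissions of 1 library.

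**Figure D3:**
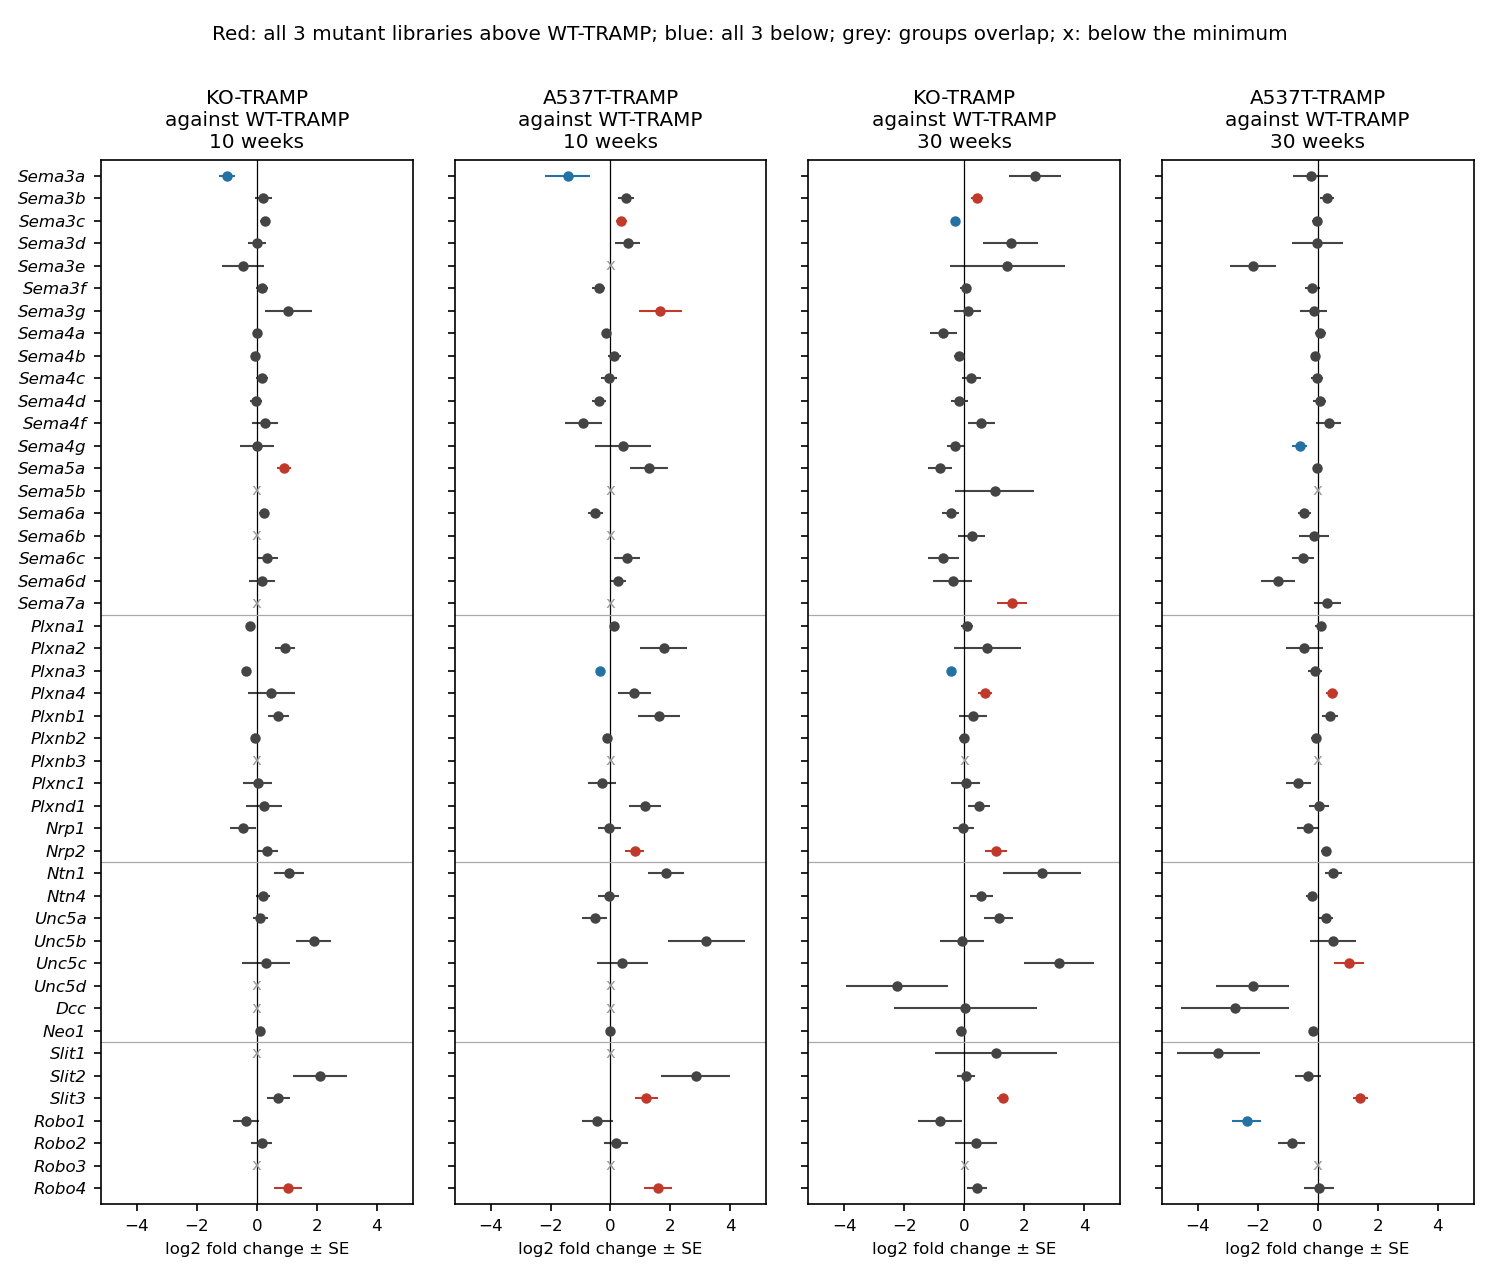
Log2 fold change ± SE of each member against WT-TRAMP in the 4 comparisons, grouped from top to bottom as semaphorins, plexins and neuropilins, netrin system, and Slit and Robo. Red and blue points have all 3 mutant libraries above or below the 3 WT-TRAMP libraries, grey points overlap, and a cross marks a member below the minimum. Slit3 is right of 0 in all 4 panels, and Robo1 has its lowest value in A537T-TRAMP at 30 weeks.

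In KO-TRAMP at 10 weeks, 2 semaphorins separated from WT-TRAMP at an unadjusted p under 0.05, Sema3a downward and Sema5a upward. By log2 difference, the measure behind all counts of higher and lower members, 28 members were higher and 10 lower. The groups did not overlap, with KO-TRAMP higher, in 2 members (5.26%, against 5.77% of all genes) and, with KO-TRAMP lower, in 1 member (2.63%, against 6.26%), so these shares were below those of all genes. Smooth muscle markers were higher in all 3 KO-TRAMP libraries (9230 to 14360 against 5155 to 8637 summed). Luminal markers summed to 146900 to 163500 against 263500 to 340000, but without Sbp, the most abundant, the other 9 summed to 34980 to 39910 against 34120 to 38870. The part of these cells in the members' values was not tested.

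Among the semaphorins in KO-TRAMP at 10 weeks, 12 of 17 were higher, with a median of 0.16. Sema3a (chr5:13125414-13602565), a secreted repellent that causes growth cones to collapse, was at 55.1, 47.5 and 39.6 in WT-TRAMP and at 20.7, 25.5 and 23.0 in KO-TRAMP. All 3 KO-TRAMP values were below the lowest WT-TRAMP value. The log2 difference was −1.0 (SE 0.27, limma adjusted p = 0.71), and it was −1.15 without libraries 8 and 9. Sema5a (chr15:32244810-32696341), a membrane-bound semaphorin with thrombospondin repeats, was at 243, 309.9 and 334 in WT-TRAMP and at 374, 729 and 606 in KO-TRAMP. All KO-TRAMP values were higher, and the highest were those of libraries 8 and 9. The difference was 0.90 (SE 0.25, limma adjusted p = 0.71) and 0.35 without these libraries. Sema3c, a secreted ligand of neuropilins and plexins, was at 281, 327 and 319 against 301, 388 and 429.9, with groups that overlapped. Sema6a, a transmembrane ligand of plexins A2 and A4, was at 107, 141 and 106 against 129, 143 and 139.6, which also overlapped. The other semaphorins tested differed by −0.45 (Sema3e) to 1.05 (Sema3g).

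Plexins and neuropilins in KO-TRAMP at 10 weeks were mixed, with 6 of 10 higher and a median of 0.14. The netrin system was higher by log2 difference in 6 of 6 members tested, with a median of 0.25. Unc5b, a netrin receptor known from vessels, had the smallest p there, at 16.6, 13.7 and 59.5 in WT-TRAMP and 50.3, 103 and 149 in KO-TRAMP. Its groups overlapped through library 3 of WT-TRAMP. Unc5c, a repulsive netrin receptor, was at 49.8, 3.75 and 17.6 against 16.2, 30.4 and 14.7 and did not separate. Its log2 difference was 0.30, but its mean was lower in KO-TRAMP (20.4 against 23.7), and edgeR gave −0.24. In Slit and Robo, 4 of 5 members were higher, with a median of 0.72. Robo4, a receptor found mostly on endothelium, was higher in all 3 KO-TRAMP libraries at a low level, with 7.87, 8.75 and 5.51 against 10.8, 20.6 and 18.4.

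In A537T-TRAMP at 10 weeks, Slit3, Robo4 and Nrp2 were higher and Plxna3 lower in all 3 mutant libraries at an unadjusted p under 0.05. Of the members, 22 were higher and 15 lower. Groups without overlap were found for 5 members with A537T-TRAMP higher (13.5%, against 6.92% of all genes) and for 2 with A537T-TRAMP lower (5.41%, against 6.53%). Smooth muscle markers summed to 11450 to 31950 against 4590 to 7702 in WT-TRAMP, and endothelial markers to 253, 521 and 571 against 215 to 245. Luminal markers summed to 28520 in library 5 against 332600 and 173400 in libraries 4 and 6. Without Sbp the other 9 luminal markers summed to 34720, 23090 and 29380 in libraries 4 to 6, against 30590 to 34690 in WT-TRAMP. The part of these cell types in the members' values was not tested.

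Of the semaphorins in A537T-TRAMP at 10 weeks, 9 of 16 were higher (median 0.19), and none had an unadjusted p under 0.05. Sema3a was at 48.2, 41.5 and 34.3 in WT-TRAMP and at 28.5, 3.32 and 28.7 in A537T-TRAMP. All mutant values were lower, and library 5 had the lowest. The difference was −1.43 (SE 0.76, limma adjusted p = 0.60) and −0.51 without libraries 5 and 6. Sema5a reached 1574 and 748 in libraries 5 and 6 but stood at 221 in library 4, against 215, 275 and 294 in WT-TRAMP. Its difference of 1.30 turned to −0.23 without libraries 5 and 6. Sema3c was at 249.8, 292 and 283 against 293, 417 and 361, with the lowest mutant value just above the highest of WT-TRAMP. Sema6a was at 107, 142 and 105 against 69.2, 71.8 and 110.1, with overlap.

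The plexins and neuropilins of A537T-TRAMP at 10 weeks included Plxna3 (chrX:74329066-74344689), at 689, 685 and 602 in WT-TRAMP and at 509, 491 and 538 in A537T-TRAMP. The mutant values were all lower by a similar amount, and the difference of −0.36 (SE 0.12, limma adjusted p = 0.60) was −0.37 without libraries 5 and 6. Nrp2, a co-receptor of Sema3f and of a vascular growth factor, was at 76.3, 128 and 134 against 137, 193 and 271. Its groups were separated only narrowly, and its difference of 0.81 (SE 0.32, limma adjusted p = 0.60) was 0.32 without libraries 5 and 6. In the netrin system, Ntn1 and Unc5b had an unadjusted p under 0.05 with overlapping groups, and Unc5b reached 934 and 424 in libraries 5 and 6 against 22.8 in library 4. Unc5c was at 44.2, 3.45 and 15.2 against 12.2, 18.8 and 27.5, with no separation.

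Slit and Robo gave the highest median at 10 weeks, 1.20 in A537T-TRAMP with 4 of 5 members higher. Slit3, a secreted ligand of Robo receptors, was at 55.4, 72.5 and 94.9 in WT-TRAMP and at 97.7, 251 and 194 in A537T-TRAMP. Library 4 exceeded the highest WT-TRAMP value only slightly. The difference of 1.20 (SE 0.38, limma adjusted p = 0.60) was 0.42 without libraries 5 and 6. Robo4 was at 7.23, 8.06 and 5.05 against 15.5, 26.5 and 26.4, a difference of 1.59 (SE 0.47, limma adjusted p = 0.60). All 3 mutant libraries were above WT-TRAMP, as were their endothelial markers.

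**Figure D4:**
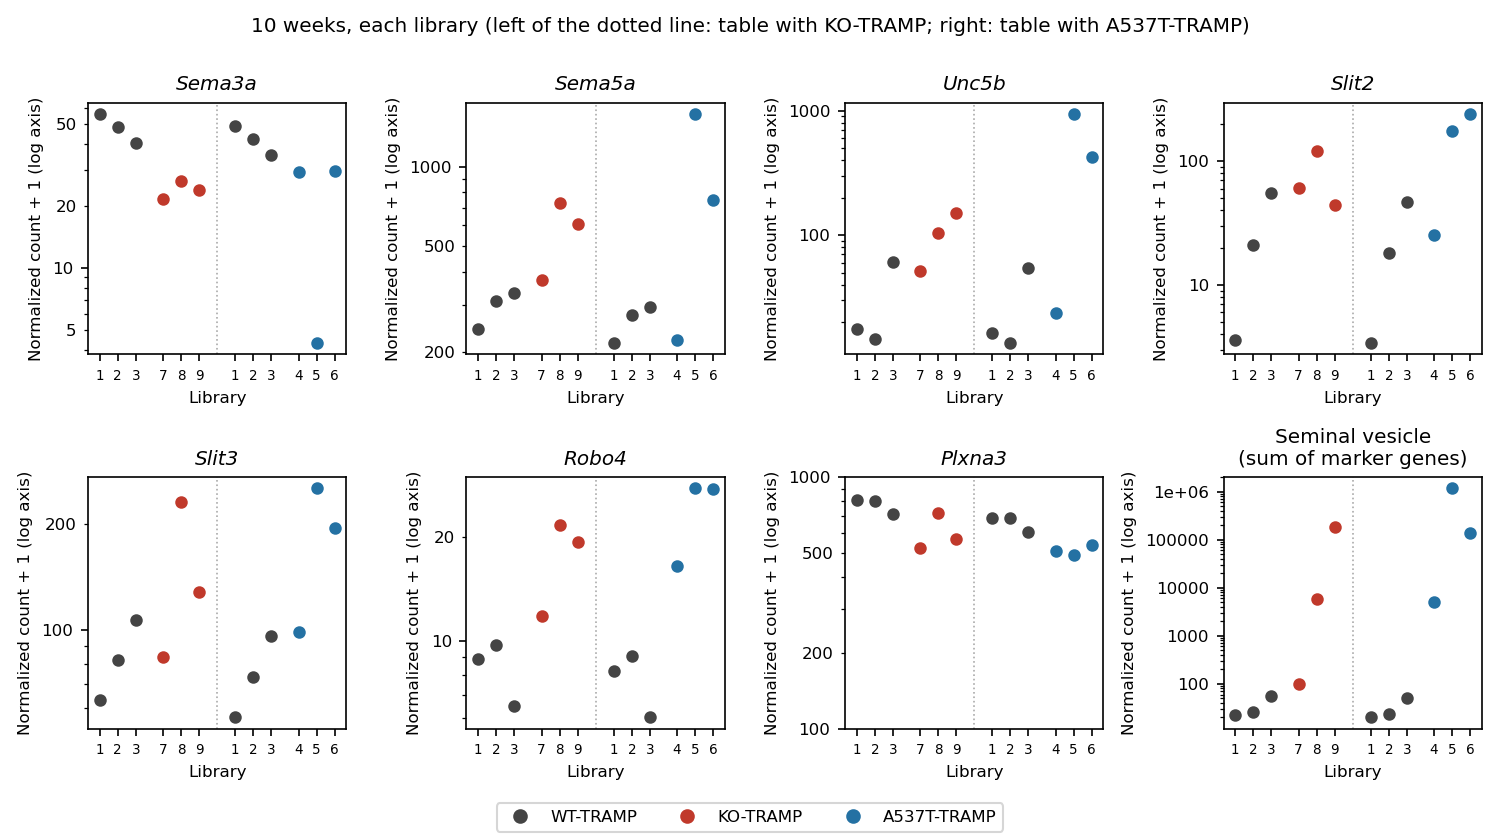
Normalized counts plus 1 (log axis) of 7 members in each library at 10 weeks, with the summed markers of seminal vesicle in the last panel. WT-TRAMP is drawn once for each table. Within A537T-TRAMP, Sema5a, Unc5b, Slit2 and Slit3 are higher in libraries 5 and 6 than in library 4. So are the summed seminal vesicle markers and the endothelial markers, which are not drawn. Within KO-TRAMP the seminal vesicle sum and Unc5b are highest in library 9, but Sema5a and Slit3 in library 8. The part of these cells was not tested. Plxna3 is lower in all 3 A537T-TRAMP libraries.

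In KO-TRAMP at 30 weeks, Slit3 was above WT-TRAMP in libraries 16, 17 and 18. Most other large differences came from libraries 17 and 18. Of the members, 28 were higher and 16 lower. Groups did not overlap in 5 members with KO-TRAMP higher (11.4%, against 10.8% of all genes) and in 2 with KO-TRAMP lower (4.55%, against 9.48%). Fibroblast markers summed to 18270 to 23220 in KO-TRAMP and 4582 to 5215 in WT-TRAMP (without Col3a1, the most abundant, 9802 to 11060 against 3247 to 3554), and macrophage markers to 2778 to 3434 against 1308 to 1573. Endothelial markers were at 797, 3429 and 2389 against 496 to 619, and without Vwf, the most abundant, the other 9 were at 657, 1004 and 870 against 419 to 446. Basal epithelial markers were at 410.5, 2340 and 1664 against 393 to 423. The part of these cells in the members' values was not tested.

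Among the semaphorins in KO-TRAMP at 30 weeks, 11 of 20 were higher (median 0.08). Sema3a was at 19.0, 11.5 and 6.84 in WT-TRAMP and at 17.5, 161 and 88.8 in KO-TRAMP. Library 16 lay within WT-TRAMP and the other 2 far above it. The difference of 2.37 (SE 0.86, limma adjusted p = 0.36) was 0.56 without libraries 17 and 18. Sema7a, a semaphorin held in the membrane by a lipid anchor, was at 10.1, 10.6 and 20.5 against 23.7, 55.4 and 54.3, with all KO-TRAMP values higher (difference 1.60, SE 0.50, limma adjusted p = 0.33). The difference was 0.82 without libraries 17 and 18. Sema5a was at 911, 1108 and 1118 against 942, 318 and 706, so that library 16 again lay within WT-TRAMP. Sema3c was at 506, 475 and 464 against 362, 459.9 and 364, narrowly lower in all 3 (difference −0.29, SE 0.14, limma adjusted p = 0.39). Sema6a was at 77.2, 113 and 107 against 83.3, 81.6 and 53.3, with overlap. Sema3e, a ligand of plexin D1 and no gene of the naming rule, is shown in the plot of 30-week libraries: it was at 1074 and 657 in libraries 17 and 18 and at 8.23 in library 16.

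Of the plexins and neuropilins at 30 weeks in KO-TRAMP, 7 of 10 were higher (median 0.19). Plxna3 was at 792, 667 and 732 in WT-TRAMP and at 512, 534 and 578 in KO-TRAMP. All 3 KO-TRAMP libraries were lower and close together. The difference of −0.43 (SE 0.11, limma adjusted p = 0.31) ranged from −0.30 to −0.51 when pairs of libraries were left out. Plxna4, a receptor of class 6 semaphorins and of Sema3a with neuropilin, was at 72.7, 62.4 and 66.1 against 83.3, 128 and 125 (difference 0.71, SE 0.23, limma adjusted p = 0.34). Nrp2 was at 225, 211 and 205 against 247, 668 and 532 (difference 1.05, SE 0.37, limma adjusted p = 0.35). In both, library 16 was only slightly above WT-TRAMP, and without libraries 17 and 18 the differences were 0.31 and 0.21.

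The netrin system in KO-TRAMP at 30 weeks was higher in 5 of 8 members (median 0.31), and its largest values sat in libraries 17 and 18. Unc5c (chr3:141465216-141834924) was at 12.3, 9.60 and 3.42 in WT-TRAMP and at 11.3, 227 and 157 in KO-TRAMP. Library 16 lay within WT-TRAMP. The difference was 3.16 (SE 1.17, limma adjusted p = 0.36), and without libraries 17 and 18 the gene was below the minimum. Ntn1, the founding netrin, was at 95.1, 67.2 and 79.8 against 54.5, 1904 and 1116, with library 16 below all of WT-TRAMP. It is shown in the same plot and lies outside the naming rule.

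Slit3 (chr11:35121224-35708507) had the smallest p of the members in KO-TRAMP at 30 weeks. It was at 230.5, 194 and 217 in WT-TRAMP and at 612, 421 and 548 in KO-TRAMP, or 214 ± 18.5 against 527 ± 97.6 (SD, n = 3). All KO-TRAMP libraries were well above WT-TRAMP, and library 16 was the highest. Library 16 had almost no neuroendocrine RNA, and fibroblast markers were higher than in WT-TRAMP in all 3 KO-TRAMP libraries. The part of these cells in Slit3 was not tested. The difference of Slit3 was 1.28 (SE 0.18, limma adjusted p = 0.0733). Without libraries 12 and 18 it was 1.259 (adjusted p = 0.99) and without libraries 17 and 18 it was 1.52 (adjusted p = 0.14), both from limma. DESeq2 gave an adjusted p of 9.69e-07 and edgeR 0.0803. Over the 6 omissions of 1 library the limma adjusted p ran from 0.0167 to 0.447, and it passed without library 16, which leaves libraries 17 and 18, of which 18 lies near a weighted sum with 17. In Slit and Robo as a family 5 of 6 members were higher, with a median of 0.42.

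In A537T-TRAMP at 30 weeks, Slit3 was again higher and its receptor Robo1 lower in all 3 mutant libraries, while the members as a whole leaned lower (16 higher, 27 lower). Groups did not overlap in 3 members with A537T-TRAMP higher (6.98%, against 7.36% of all genes) and in 2 with A537T-TRAMP lower (4.65%, against 6.03%). Fibroblast markers summed to 11810, 7068 and 9326 in A537T-TRAMP and to 4365 to 4974 in WT-TRAMP. Neuroendocrine markers were at 127, 163 and 23.9 against 1503, 4.48 and 709, so WT-TRAMP libraries 10 and 12 held more of them than the mutant libraries. Libraries 10 and 12 also held seminal vesicle markers, at 456800 and 201400 against 11.7 in library 11. Seminal vesicle markers were high in A537T-TRAMP libraries 13 and 15 as well and low in library 14, as given above. The part of these cells in the members' values was not tested.

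Slit3 was at 213, 178 and 198 in WT-TRAMP and at 588, 355 and 706 in A537T-TRAMP at 30 weeks. The lowest mutant value was that of library 14, which also had the lowest fibroblast sum of the line. The highest value was that of library 15, whereas the highest fibroblast sum was that of library 13. The difference of Slit3 was 1.43 (SE 0.25, limma adjusted p = 0.25) and between 1.22 and 1.71 when any 1 library was left out. Without libraries 12 and 15 it was 1.23 (limma adjusted p = 0.9995), and without libraries 10 and 12 it was 1.57. DESeq2 gave an adjusted p of 2.33e-05 and edgeR 0.276. Robo1 (chr16:72308306-73046095), the main receptor of Slit ligands here by level, was at 1142, 244 and 542 in WT-TRAMP and at 96.7, 101 and 109.7 in A537T-TRAMP. The mutant libraries were close together, whereas WT-TRAMP spread widely, with library 11 nearest to them. The difference of −2.37 (SE 0.49, limma adjusted p = 0.41) was −1.24 without WT-TRAMP libraries 10 and 12 and −2.40 without libraries 12 and 15. Without library 11 it was −2.93 and passed (limma adjusted p = 0.0249), which leaves libraries 10 and 12, of which 12 lies near a weighted sum with 10. Neuroendocrine and seminal vesicle markers were both high in libraries 10 and 12 and low in library 11, so that their parts in Robo1 cannot be told apart in WT-TRAMP. Among the A537T-TRAMP libraries, seminal vesicle markers were low in library 14 alone, while Robo1 was alike in all 3. In KO-TRAMP Robo1 was at 131, 582 and 415, with the lowest value in library 16, and its groups overlapped (difference −0.80, SE 0.74, limma adjusted p = 0.59). Library 16 had the lowest neuroendocrine and the highest seminal vesicle sum of KO-TRAMP at this age. The part of either marker list in Robo1 was not tested.

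Semaphorins in A537T-TRAMP at 30 weeks were lower in 14 of 19 members, with a median of −0.09. Sema4g, a class 4 transmembrane ligand, was at 78.0, 73.5 and 90.7 in WT-TRAMP and at 41.0, 72.7 and 48.8 in A537T-TRAMP. Library 14 nearly reached WT-TRAMP, and the difference was −0.60 (SE 0.26, limma adjusted p = 0.69). Sema3e, outside the naming rule, was also lower at an unadjusted limma p under 0.05, the smallest downward among the semaphorins. Its groups overlapped, and DESeq2 called it. The 4 semaphorins that the study discusses did not stand out here. Sema3a was at 17.9, 10.8 and 6.4 against 14.7, 8.35 and 5.98, and Sema5a at 860.0, 1038 and 1048 against 1108, 819 and 980. Sema3c was at 467, 435 and 425 against 549, 361 and 402, and Sema6a at 81.1, 117 and 109.9 against 72.1, 88.2 and 64.8. All 4 overlapped. Plexins and neuropilins were split evenly (5 of 10 higher, median −0.01), as was the netrin system (4 of 8 higher, median 0.05). Unc5c was at 12.6, 10.8 and 4.27 against 15.6, 22.7 and 17.9, higher in all 3 mutant libraries (difference 1.04, SE 0.51, limma adjusted p = 0.72). Slit and Robo had 2 of 6 members higher and a median of −0.59, with Slit1, Slit2, Robo1 and Robo2 lower.

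**Figure D5:**
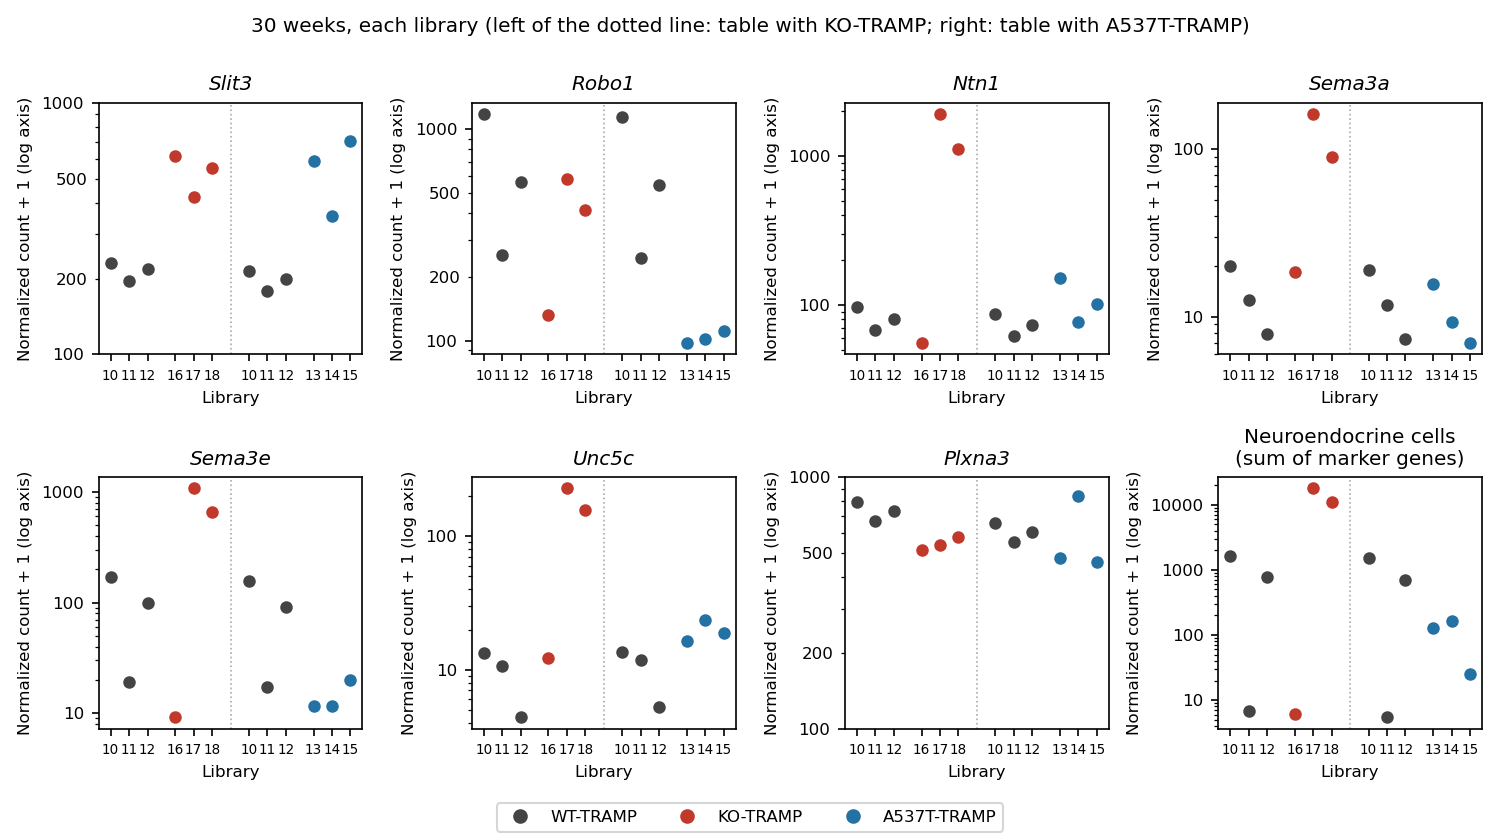
Normalized counts plus 1 (log axis) of 7 members in each library at 30 weeks, with the summed neuroendocrine markers in the last panel. WT-TRAMP is drawn once for each table. Slit3 is higher in all 6 mutant libraries, while Ntn1, Sema3a, Sema3e and Unc5c are high in KO-TRAMP libraries 17 and 18, which also hold the most neuroendocrine RNA. Endothelial and basal epithelial markers, not drawn, are higher in libraries 17 and 18 than in library 16 as well. The part of these cells was not tested.

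Side by side, the difference of Slit3 from WT-TRAMP was 0.72 (SE 0.37) in KO-TRAMP and 1.20 (SE 0.38) in A537T-TRAMP at 10 weeks, and 1.28 (SE 0.18) and 1.43 (SE 0.25) at 30 weeks. Both lines of an age use the same WT-TRAMP libraries. In KO-TRAMP at 10 weeks it was at 62.1, 81.2 and 106 in WT-TRAMP and at 82.7, 230.1 and 127 in KO-TRAMP, the only one of the 4 comparisons in which its groups overlapped. The test of the change between ages gave 0.57 (SE 0.46, limma adjusted p = 0.58) in KO-TRAMP and 0.23 (SE 0.49, limma adjusted p = 0.89) in A537T-TRAMP, and that between lines −0.48 (SE 0.47, limma adjusted p = 0.96) at 10 weeks and −0.14 (SE 0.29, limma adjusted p = 0.81) at 30 weeks. A difference of Slit3 between ages or lines was thus not detectable with 3 libraries a group.

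Differences between the ages were tested directly, as the line's effect at 30 weeks minus that at 10 weeks. No member passed in KO-TRAMP (0 of 44, against 0% of all genes) or in A537T-TRAMP (0 of 43, against 0%). At an unadjusted p under 0.05 stood 3 of 44 members in KO-TRAMP (6.82%, against 13.1% of all genes) and 4 of 43 in A537T-TRAMP (9.30%, against 6.36%). In KO-TRAMP these were 3 semaphorins. Sema3a went from lower to higher than WT-TRAMP, a change of 3.37 (SE 0.92, limma adjusted p = 0.26). Sema5a went from higher to lower, a change of −1.71 (SE 0.50, limma adjusted p = 0.26). Sema3c differed by −0.55 (SE 0.21, limma adjusted p = 0.33). For Sema3a and Sema5a the 30-week side rests on libraries 17 and 18, as given above. In A537T-TRAMP, Robo1, Robo4, Sema6d and Slit2 were relatively lower at 30 than at 10 weeks, by −1.56 (Robo4) to −3.16 (Slit2).

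Differences between the lines were tested as the KO-TRAMP effect minus the A537T-TRAMP effect of an age, each against the same WT-TRAMP libraries. No member passed at 10 weeks (0 of 37, against 0.0066% of all genes) or at 30 weeks (0 of 43, against 0%). At 10 weeks 2 of 37 members stood at an unadjusted p under 0.05 (5.41%, against 2.91%), both relatively higher in KO-TRAMP. These were Sema6a, with a difference of 0.74 (SE 0.23, limma adjusted p = 0.96), and Sema3f. At 30 weeks there were 6 of 43 (13.95%, against 11.2%), all relatively higher in KO-TRAMP. They were Sema3a with a difference of 2.59 (SE 0.85, limma adjusted p = 0.44), Robo1 with 1.57 (SE 0.53, limma adjusted p = 0.44), and Sema3d, Sema6d, Sema7a and Plxnc1, a receptor of Sema7a. In KO-TRAMP both Sema3a and Robo1 were lowest in library 16. Without library 16, 17 of 43 members passed, beside 3120 genes in all. That leaves libraries 17 and 18, of which 18 lies near a weighted sum with 17. Without libraries 12, 15 and 18 no member passed.

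Other genes of the pathway were read from 3 further lists: 22 ephrins and Eph receptors, which signal between touching cells, 24 further cues and co-receptors, and 42 cytoplasmic effectors that pass guidance signals to the cytoskeleton. By limma 1 of these 88 genes passed in 1 of the 4 comparisons, Chl1 in KO-TRAMP at 30 weeks, where 0.213% of all genes passed. DESeq2 called 2 (Pak3 and Ephb6) for KO-TRAMP and 2 (Pak3 and Srgap3) for A537T-TRAMP at 10 weeks, and 5 (Chl1, Cfl1, Srgap1, Kdr and Sdc1) and 1 (Crmp1) at 30 weeks. Over all genes DESeq2 called 81 of 15451 and 148 of 15438 at 10 weeks, and 805 of 16900 and 165 of 16261 at 30 weeks. Chl1 (chr6:103510586-103750211), an adhesion molecule close to L1 that can act with neuropilin, was at 242, 294 and 317 in WT-TRAMP and at 869, 1252 and 1076 in KO-TRAMP. All KO-TRAMP libraries, library 16 included, were far above WT-TRAMP. The difference was 1.90 (SE 0.18, limma adjusted p = 0.0401), with an adjusted p of 0.0472 by edgeR and 6.05e-16 by DESeq2. The limma call was lost without libraries 12 and 18 (1.97, limma adjusted p = 0.99), without 17 and 18 (1.62, limma adjusted p = 0.15) and without any 1 library other than 16, while the difference stayed between 1.77 and 2.04 over those single omissions.

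At 10 weeks the further lists had small medians in KO-TRAMP: 0.18 over 15 ephrins and Eph receptors tested, 0.32 over 18 further cues and −0.01 over 40 effectors. In A537T-TRAMP the medians were 0.39 over 14, 0.28 over 17 and 0.04 over 40. Pak3, a kinase downstream of Rac, was the effector with the smallest p upward in both lines. It was at 5.25, 6.25 and 12.1 in WT-TRAMP and at 17.98, 69.5 and 75.3 in KO-TRAMP, and at 4.02, 5.76 and 10.1 against 47.2, 324 and 44.7 in A537T-TRAMP. All 6 mutant libraries were above WT-TRAMP, and DESeq2 gave adjusted p-values of 0.0152 and 0.000238. Limk2, a kinase that acts on cofilin, had the smallest p downward in both lines, with differences of −0.29 and −0.70. Sdc4, a heparan sulfate proteoglycan, led downward among the further cues, with −0.29 in KO-TRAMP and −0.70 in A537T-TRAMP. The smallest p upward there belonged to Met, the receptor of hepatocyte growth factor, in KO-TRAMP (0.29) and to Kdr, a VEGF receptor of endothelium, in A537T-TRAMP (1.43). Among the Eph receptors, Ephb6, which lacks kinase activity, led downward in both lines, with −0.70 and −0.96, and Epha3 (1.06) and Epha2 (1.56) led upward in KO-TRAMP and A537T-TRAMP. None of these had a limma adjusted p under 0.60, while DESeq2 gave Ephb6 in KO-TRAMP an adjusted p of 0.0381.

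At 30 weeks in KO-TRAMP, 12 of 42 effectors had an unadjusted p under 0.05 (all genes 13.5%). Cfl1, cofilin itself, was at 1490.5, 1505 and 1443 in WT-TRAMP and at 1918, 3257 and 2654 in KO-TRAMP, higher in all 3 libraries with a difference of 0.79 (SE 0.20, limma adjusted p = 0.29, DESeq2 adjusted p = 0.0115). Arhgef12, which binds class B plexins, led downward with −0.44. Rgma, a ligand of neogenin, was lower by −1.0 (SE 0.29, limma adjusted p = 0.33), and Ephb6 and Efnb2 had the smallest p among ephrins and Eph receptors with 0.45 and −0.39. In A537T-TRAMP at 30 weeks the genes with the smallest p were Ephb4 (0.37) and Ephb3 (−0.35), Sdc1 (0.33) and Ntn3 (−1.47), and Srgap1, which binds Robo receptors (1.35), with Crmp1 of the semaphorin pathway (−3.82). Crmp1 was at 225.5, 7.17 and 109 in WT-TRAMP and at 2.46, 9.54 and 1.00 in A537T-TRAMP, with the high values in libraries 10 and 12 (DESeq2 adjusted p = 0.00232). No gene of these 3 lists in A537T-TRAMP at 30 weeks had a limma adjusted p under 0.56.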

How the data were processed

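Total RNA of 18 TRAMP prostates was sequenced. Per the labels and the study's methods, the authors trimmed reads with Trim Galore 0.4.1 and cutadapt 1.18, aligned them with STAR 2.7.3a to GRCm38.p6, quantified genes with Salmon and used DESeq2 1.26. The authors deposited normalized counts, a signal made by scaling estimated reads with a library-wide size factor, in 4 tables of 6 libraries. Whole numbers of estimated reads were recovered in all libraries (100% of values within 0.01 of a whole read). WT-TRAMP values differed between the 2 tables of an age (30.9% to 37.6% of genes with identical reads), so values were compared only within a table. Columns shared by the KO and A537T tables were read as WT-TRAMP. The authors' own comparison tables (shrunken fold changes and s-values) were not used.

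Tests used limma 3.58.1 (lmFit, eBayes with trend, R 4.3.3) on log2(normalized count + 1), which understates changes of low genes, over genes with a mean of at least 10, with Benjamini-Hochberg adjustment. edgeR 4.0.16 and DESeq2 1.42.0 on recovered reads, other filters, pseudocounts, TMM factors, array weights and omissions of libraries were alternatives. The tests were tested on simulated data. Lengths and positions are from the GENCODE vM21 annotation of GRCm38, an earlier release than the authors', and 55107 of 55469 gene IDs had a symbol. The members and lists were chosen with earlier results of these data known. Values per library are given for the 5 genes the study discusses (Sema3a, Sema3c, Sema5a, Sema6a, Unc5c, whose values are no independent evidence), for members with an adjusted p under 0.05 or with an unadjusted p under 0.05 and no overlap, and as levels for the 2 highest per kb of each family. Of the other lists, genes past the threshold or else with the smallest p in each direction are named. Ntn1, Unc5b, Sema3e, Robo4 at 10 weeks in KO-TRAMP and the genes named only in counts were added after their values were seen.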

Additional observations from a re-analysis of the deposited data

How the results depend on the processing

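No paired analysis was possible because the columns carry no replicate number. The count of members past the threshold stayed at 0 under pseudocounts of 0.5 and 5, TMM factors, edgeR and both filters. DESeq2 called 1 member (Sema5a) for KO-TRAMP at 10 weeks. At 30 weeks it called 5 (Ntn1, Plxna3, Sema3a, Slit3 and Unc5c) for KO-TRAMP and 3 (Robo1, Sema3e and Slit3) for A537T-TRAMP, while array weights called 29 of 44 and 15 of 43. With any 1 library left out the count at 30 weeks ran from 0 to 10 for KO-TRAMP and 0 to 3 for A537T-TRAMP, 0 to 6 for KO-TRAMP between ages and 0 to 17 between lines at 30 weeks. The highest counts came without library 16 or 11. Without libraries 12 and 18, or 12 and 15, the count was 0. Over all genes at 30 weeks in KO-TRAMP, limma called 36, edgeR 15, DESeq2 805, array weights 10748 and single omissions 0 to 3064; in A537T-TRAMP limma and edgeR called 0, DESeq2 165, array weights 3388 and omissions 0 to 145. At 10 weeks limma called 2 and 1, edgeR 0 and 0, DESeq2 81 and 148, array weights 2 and 4 and omissions 1 to 9 and 0 to 65. Omissions gave 0 to 1944 (KO-TRAMP) and 0 to 20 (A537T-TRAMP) between ages, and 0 to 2 and 0 to 3120 between lines at 10 and 30 weeks. The cause was not tested.

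Per kb of the longest transcript the levels were 322 (Plxnb2), 399 (Sema4a), 125 (Neo1), 90.3 (Plxna3), 91.4 (Sema4b) and 43.4 (Robo1). Of 930 alternatives for 60 values of single genes, 22 changed sign, none of them at an adjusted p under 0.05. In A537T-TRAMP at 10 weeks without libraries 5 and 6 these were Elac2 at 0.12, Sema5a at −0.23 and Unc5c at −0.17, and Unc5c was at −0.11 with edgeR and DESeq2. In KO-TRAMP at 10 weeks Sema3c was at −0.0343 without libraries 8 and 9, and Unc5c at −0.24 with edgeR and −0.22 with DESeq2. In A537T-TRAMP at 30 weeks Elac2 was at −0.0816 without libraries 10 and 12 and Sema5a at 0.0122 without 12 and 15. With any 1 library left out, Elac2 ran from −0.19 to 0.0064 in A537T-TRAMP at 10 weeks and from −0.0589 to 0.11 at 30 weeks, Unc5c at 10 weeks from −0.59 to 1.12 (KO-TRAMP) or −0.47 to 1.20 (A537T-TRAMP), while for the 30-week A537T-TRAMP comparison Sema3a ran from −0.56 to 0.0391, Sema3c from −0.21 to 0.088 and Sema5a from −0.13 to 0.0915. Omissions of 2 or 3 libraries were chosen after seeing the data. With 3 libraries a group and members as low as 10 normalized counts, smaller differences could not be detected.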
